A study of Saccharomyces cerevisiae with 17 samples.

Results

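The comparison of CIP/TAP with TAP sets side by side 2 SMORE-seq libraries of budding yeast (Saccharomyces cerevisiae). SMORE-seq joins an adapter to the 5′ end of each RNA molecule, and the reads then count where RNAs begin. Both libraries came from the wild-type strain BY4741, grown in YPD, a rich medium, to an OD of 0.8, and in both the RNA was selected by its poly(A) tail. The RNA of the TAP library was treated with TAP, and that of the CIP/TAP library with CIP and with TAP. BY4741, a laboratory strain, is of mating type a and lacks functional HIS3, LEU2, MET17 and URA3 in both groups alike. Each group was 1 library, so no difference below has a replicate check, and sizes are given with intervals that cover counting error only. An identifier was measured when it had at least 50 counts over both libraries, which kept 1679 of the 5797 gene identifiers in the tables. A separate table, of 3 wild-type samples depleted of ribosomal RNA, was used as a further readout of the same identifiers.

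Messenger RNA made by RNA polymerase II carries a cap, a methylated guanosine joined to the first base through a chain of phosphates. Tobacco acid pyrophosphatase (TAP) opens that chain and leaves 1 phosphate that an adapter can be ligated to. Calf intestinal phosphatase (CIP) removes phosphates from RNA ends that have no cap, so that such ends can no longer be ligated, while capped ends are protected until TAP opens them. Ends without a cap belong to products of 5′ to 3′ decay, to processed RNAs such as many small nucleolar RNAs, and to transcripts of RNA polymerase III, among them tRNAs, 5S ribosomal RNA and the RNA of the signal recognition particle. An end that depends on an uncapped phosphate should thus be counted with TAP and lost or reduced when CIP comes first. A lower count in 1 CIP/TAP library does not by itself show that an end has no cap.

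The TAP library held 864536 counts and the CIP/TAP library 1097457, and the measured identifiers held 98.3% and 99.1% of them. Where a library lists 0, up to 3 counts remain possible, or 3.47 CPM (counts scaled to the same total per library) in TAP and 2.73 CPM in CIP/TAP. Most counts of these tables lie on identifiers with a close neighbour on the other strand that is transcribed away from them (a divergent neighbour). Identifiers with a divergent protein-coding gene within 500 bp held 84.7% of the TAP counts and 86.9% of the CIP/TAP counts. The strand and feature settings of the counting were not given in the sources used here. A count is therefore reported as that of an identifier beside its neighbour and not as the expression of either gene, and transcripts that overlap or run antisense cannot be told apart. LEU2, URA3 and MET17 were at 0 in both libraries, while HIS3 had 650 and 730 counts beside MRM1. Of genes specific to mating type a, MFA1 had 1 and 28 counts and MFA2, STE2, STE6, BAR1, AGA2 and ASG7 were at 0. Of genes specific to mating type alpha, SAG1 had 108 and 189, MF(ALPHA)2 had 3 and 28, and MF(ALPHA)1 and STE3 were at 0, so that the mating type could not be read from these counts. In RNA from whole cultures, fewer cells with a transcript and less of it per cell cannot be told apart.

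The ratio used below is the log2 of CIP/TAP over TAP after scaling of both libraries (TMM factors), so that a negative value is an end counted less often when CIP came first. The median ratio of the 1679 identifiers was 0.16 (95% interval 0.10 to 0.21), and it was −0.0019 with scaling by total counts, a shift of −0.16 that is to be kept in mind for every ratio close to 0. At least 2-fold higher in CIP/TAP were 373 identifiers, 22.2% of those measured, and at least 2-fold lower were 262, or 15.6%. The identifiers at least 2-fold lower held 5.41% of the TAP counts and 1.45% of the CIP/TAP counts. Those at least 2-fold higher held 3.29% of TAP and 8.27% of CIP/TAP. The 1044 identifiers within 2-fold held 89.6% and 89.4%, so that most counts lay on identifiers that differed by less than 2-fold between the libraries.

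**Figure D1:**
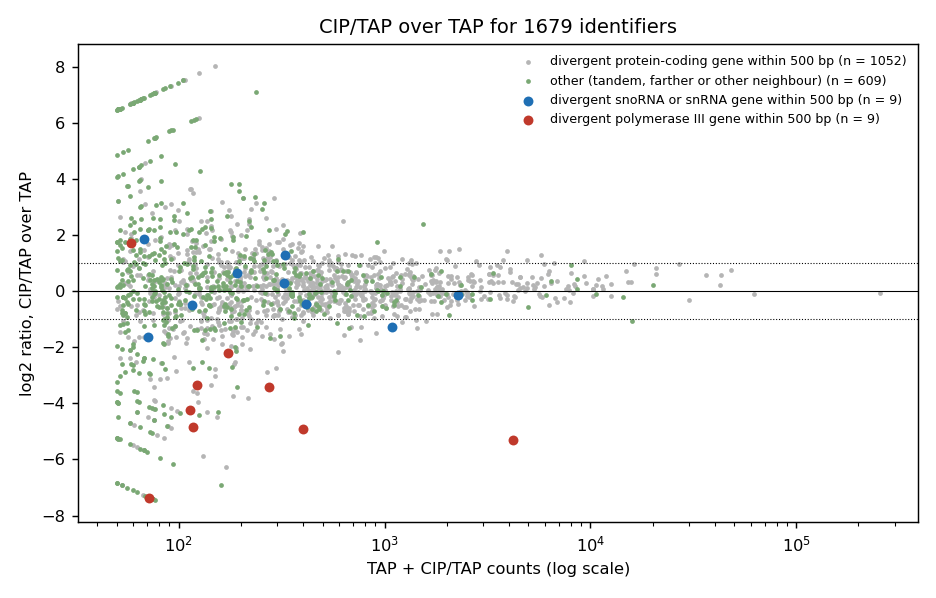
Log2 ratio of CIP/TAP over TAP against the summed counts of both libraries (log scale) for the 1679 measured identifiers, 1 point each, colored by the upstream neighbour; dotted lines mark 2-fold. The cloud narrows with rising counts, and YER137C beside SCR1, with 4210 summed counts, lies alone at −5.32; points on the slanting lines at both edges are identifiers with 0 or few counts in 1 library.

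Large ratios were mostly those of identifiers with few counts. Between 50 and 99 summed counts, 36.2% of 439 identifiers were 2-fold or more higher and 31.4% were 2-fold or more lower, and the interquartile range of the ratios was 3.48 on the log2 scale. Between 200 and 499 counts the shares were 21.3% and 8.72% of 390 identifiers, with an interquartile range of 1.27. At 5000 counts or more they were 4.62% and 1.54% of 65 identifiers, which is 3 identifiers higher (the highest being ADF1) and 1 lower (RRT15), with one of 0.62. The counting interval of the ratio left out the median of all identifiers for 75.6% of the identifiers in the lowest range and for 87.7% in the highest, but the spread between repeat libraries was not measured. With the whole interval required to lie beyond 2-fold, 239 identifiers were higher (14.2%) and 182 lower (10.8%). The same rule gave 70 higher (7.71%) and 32 lower (3.52%) at 200 counts or more, and 10 higher (3.32%) and 4 lower (1.33%) at 1000 or more.

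**Figure D2:**
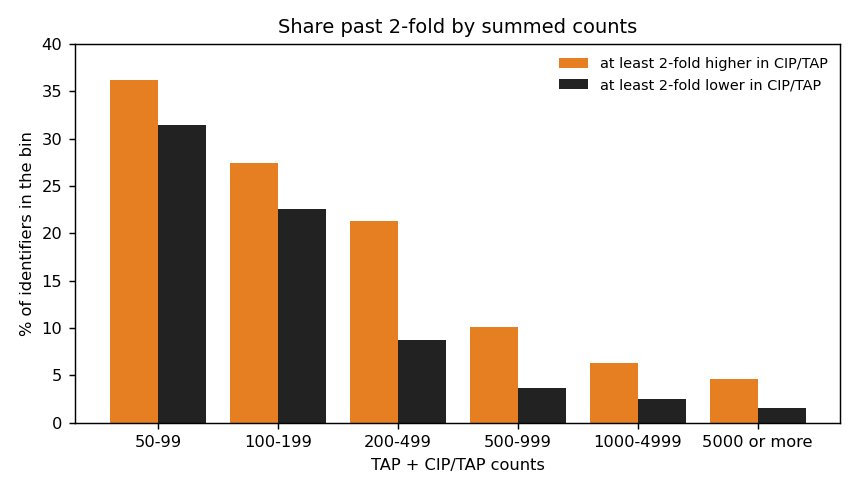
Share of identifiers (percent, linear axis from 0) at least 2-fold higher (orange) or lower (black) in CIP/TAP, by range of summed counts. The shares go from 36.2% and 31.4% at 50 to 99 counts to 4.62% and 1.54% at 5000 counts or more, and the higher share is the larger one in each range under TMM scaling.

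Identifiers just inside and just outside the thresholds were close to each other. SPO16, with 34 counts in TAP and 78 in CIP/TAP, was the last one at least 2-fold higher, at 1.00, and YPI1, with 8251 and 18661, lay just below the line at 0.99. MRP7, with 122 and 69, was the last one at least 2-fold lower, and TAF5, with 202 and 115, lay just outside at −0.99. YAR068W had 47 and 3 counts and stood among 21 identifiers at exactly 50, while MDM10, with 48 and 1, was 1 of 14 identifiers at 49 that were left out.

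Identifiers close to genes of RNA polymerase III were counted far less often after CIP. Of 25 identifiers with a divergent polymerase III gene within 500 bp, 9 were measured, and 8 of these were at least 2-fold lower and 1 higher, where 15.6% and 22.2% of all measured identifiers were. Their median ratio was −4.24 (−5.32 to −2.21), against 0.16 for all. All of the lower ones except YER137C had under 50 counts in CIP/TAP. They were measured only through TAP, the library in which they were higher, which limits the calls and the median. Together the 25, taken without a minimum count, held 5447 counts in TAP, 0.630% of the library, and 309 in CIP/TAP, 0.0282%. The ratio of these sums was −4.32 (−4.49 to −4.16) and rested largely on YER137C. Without that identifier the sums were 1353 and 193 counts, with a ratio of −2.99 (−3.22 to −2.77) and a median of −3.83 over 8 measured identifiers.

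YER137C (R64, the assembly that the build sacCer3 names, chromosome V, 441373 to 441819, minus strand) is an uncharacterized reading frame that starts 167 bp from SCR1. SCR1 encodes the RNA of the signal recognition particle, which guides secretory proteins to the endoplasmic reticulum. The identifier had 4094 counts in TAP, 116 in CIP/TAP and 47473 after ribosomal RNA depletion. Its ratio of −5.32 (−5.60 to −5.06) was the lowest of the 301 identifiers with at least 1000 counts. The next lowest ratio in that range, that of AIM36, was −1.29.

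The other 7 identifiers that were lower lay beside tRNA genes, 143 to 253 bp away. TGL2 (chromosome IV, 567723 to 568703), which encodes a lipase, had 386 counts in TAP and 14 in CIP/TAP, at −4.92 (−5.85 to −4.20). COQ6, an enzyme of ubiquinone synthesis, had 249 and 26 counts, at −3.42 (−4.09 to −2.86). FYV6 had 140 and 34, the smallest difference of the group, at −2.21 (−2.81 to −1.68). In each of them the TAP count was at least 4 times the CIP/TAP count.

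YIL102C had 114 and 4 counts, at −4.85 (−6.92 to −3.62). FAR3, a gene of the pheromone arrest pathway, had 111 and 12, at −3.34 (−4.39 to −2.53). MIC19, a gene for a subunit of the mitochondrial cristae-organizing complex, lies beside the tyrosine tRNA gene SUP11 and had 108 and 6, at −4.24 (−5.83 to −3.18). These 3 identifiers had nearly the same TAP count, while their counts after ribosomal RNA depletion were 0, 4321 and 1016. YJL028W (chromosome X, 391311 to 391646), 195 bp from the methionine tRNA gene EMT5, had 72 counts in TAP and 0 in CIP/TAP, which makes it at least 27.3-fold lower.

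PMT7 was the exception. It starts 320 bp from a tRNA gene and had 12 counts in TAP and 47 in CIP/TAP, at 1.74 (0.85 to 2.84). Of the 24 identifiers with a divergent tRNA gene, the 14 whose gap was at most 300 bp all had the lower scaled count in CIP/TAP, and 7 of them were measured. These 14 held 1341 counts in TAP and 138 in CIP/TAP, a ratio of the sums of −3.46 (−3.73 to −3.21). The 10 with a gap of 301 to 500 bp held 12 and 55 counts, nearly all of them in PMT7, and 6 of the 10 were at 0 in both libraries. The line at 300 bp was drawn after the values had been seen.

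Identifiers beside tRNA genes with fewer than 50 counts are given as counts. PTR3, beside the tyrosine tRNA gene SUP6, had 48 in TAP and 1 in CIP/TAP. NPR3 had 32 and 1, and RPC17, itself the gene for a polymerase III subunit, had 29 and 1. CDC26 had 25 and 13, a ratio of −1.10 (−2.22 to −0.11), and YIL014C-A had 22 and 24, a ratio of −0.06 (−0.95 to 0.85), so that not every identifier at this distance differed between the libraries beyond counting error. COG2, 315 bp from its tRNA gene, had 0 and 6.

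**Figure D3:**
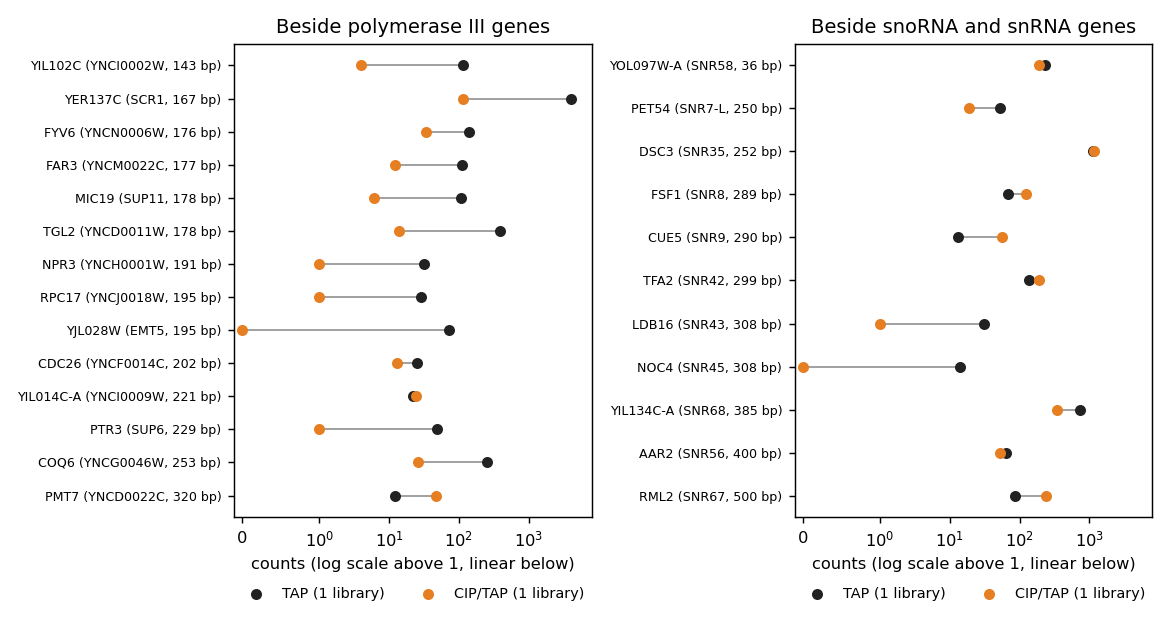
Counts in TAP (black) and CIP/TAP (orange) of identifiers beside divergent polymerase III genes (left) and snoRNA or snRNA genes (right) within 500 bp with at least 10 summed counts, 1 library each, on an axis that is logarithmic above 1 and linear below. On the left, 12 of the 14 identifiers shown have their black point to the right, and PMT7 and YIL014C-A do not; on the right the order of the points changes from identifier to identifier.

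The low ratios went with a divergent arrangement at short distance. Upstream of the identifier, on the other strand and at most 300 bp away, a polymerase III gene (5S ribosomal RNA genes included) was found for 15 identifiers. Of these, 8 were measured and 8 were at least 2-fold lower, with a median of −4.55 (−4.51 with YJL028W at its bound). All of them except YER137C were measured only through their TAP counts. With the polymerase III gene on the same side and strand but 501 to 1000 bp away, 8 identifiers were measured, with a median of −0.17, 2 of them higher and 1 lower. At 1001 to 1500 bp, 14 were measured, with a median of −0.10, 3 higher and 3 lower. The nearest polymerase III gene was taken whatever lay between, so that another gene can be closer. UTR5, 1058 bp from a polymerase III gene, starts 130 bp from HYP2. With the polymerase III gene downstream and convergent, at most 300 bp away, 28 identifiers were measured, with a median of 0.13 (−0.48 to 0.61), 5 higher and 4 lower. Among these last, ASF1, a histone chaperone gene, had 1 and 53 counts, and MEP1, an ammonium permease gene, had 69 and 13. With the polymerase III gene upstream on the same strand and at most 300 bp away, 0 of 58 identifiers had enough counts to be measured.

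**Figure D4:**
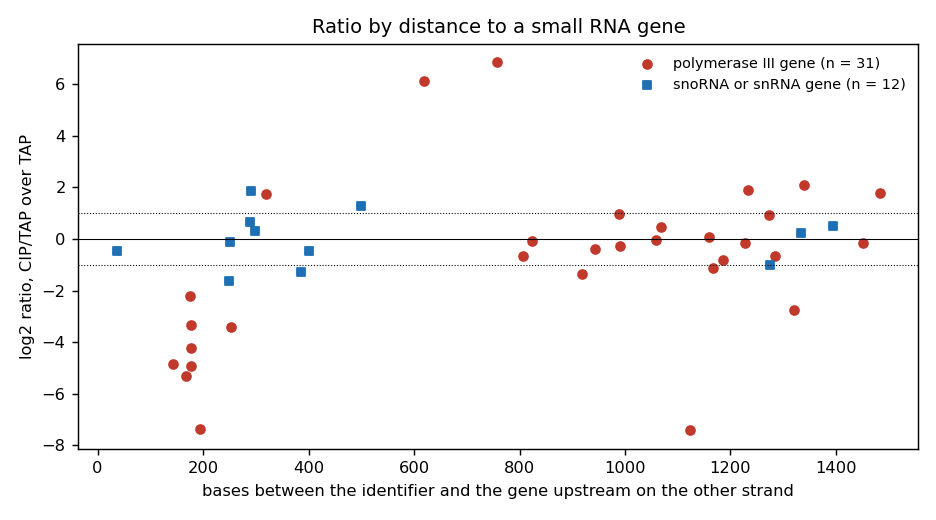
Log2 ratio of CIP/TAP over TAP against the number of bases between a measured identifier and the polymerase III gene (red circles) or the snoRNA or snRNA gene (blue squares) upstream of it on the other strand; dotted lines mark 2-fold. The 8 red points within 300 bp lie between −7.36 (YJL028W, at 0 in CIP/TAP and drawn with 0.5 added) and −2.21, and those beyond 500 bp lie on both sides of 0.

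YLR157W-E (chromosome XII, 481873 to 482037) ends 7 bp before RDN5-4, 1 of the repeated copies of the 5S ribosomal RNA gene, on the same strand. It had 475 counts in TAP and 121 in CIP/TAP, at −2.15 (−2.46 to −1.87), which was among the 15 lowest ratios at 200 counts or more. Reads from near-identical repeats can be split or lost in mapping, so its counts are uncertain. RRT15 (chromosome XII, 490406 to 490594), 936 bp from another 5S copy, had 10311 and 5618 counts, at −1.06 (−1.11 to −1.01). It was the lowest ratio of all identifiers with at least 5000 counts.

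Small nucleolar RNAs (snoRNAs) guide the modification and cleavage of ribosomal RNA, and the snRNAs form the spliceosome. Nearly all are made by RNA polymerase II, and many snoRNAs lose their cap when the precursor is trimmed. Measured identifiers beside their genes did not, as a group, share the low ratios. Of 13 with a divergent snoRNA or snRNA gene within 500 bp, 9 were measured, 2 were higher and 2 lower, and the median was −0.13 (−1.28 to 1.30). In all they held 2559 counts in TAP and 2383 in CIP/TAP, a ratio of −0.29 (−0.37 to −0.21), while they held 539833 counts, 19.1% of the table, after ribosomal RNA depletion.

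DSC3 beside SNR35, a snoRNA of the H/ACA class that guides pseudouridine formation, had 1121 and 1162 counts, at −0.13 (−0.25 to −0.01). TFA2 beside SNR42, of the same class, had 135 and 189, at 0.30 (−0.02 to 0.63). FSF1 beside SNR8 had 69 and 124, at 0.66 (0.23 to 1.11), and CUE5 beside SNR9 had 13 and 55, at 1.86 (1.01 to 2.89). None of these 4 measured neighbours of H/ACA genes was 2-fold lower. LDB16 beside SNR43, which was under 50 counts, had 31 and 1, at −4.58 (−10.49 to −2.55).

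The 4 measured neighbours of C/D snoRNA genes, whose products guide methylation, lay on both sides. YIL134C-A beside SNR68 had 740 and 346 counts, at −1.28 (−1.47 to −1.09), 1 of the 3 lowest ratios in the range of 1000 counts or more. YOL097W-A beside SNR58 had 228 and 190, at −0.45 (−0.73 to −0.16). AAR2 beside SNR56 had 64 and 52, at −0.48 (−1.04 to 0.07). RML2 beside SNR67 had 86 and 241, at 1.30 (0.94 to 1.68). PET54, beside the U5 spliceosomal RNA gene SNR7-L, had 52 and 19, at −1.61 (−2.48 to −0.85). Under 50 counts, NOC4 beside SNR45 had 14 and 0.

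Few identifiers with many counts were reduced after CIP. Among the 301 identifiers with at least 1000 counts, 7 were at least 2-fold lower (2.33%) and 18 higher (5.98%). The 7 include YER137C, YIL134C-A and RRT15, which are given above, and the others follow. AIM36, divergent to MRPS8, a gene of the small mitochondrial ribosomal subunit, had 983 and 457 counts, at −1.29 (−1.45 to −1.13). DBP6, a helicase gene of ribosome assembly that is divergent to the mitochondrial ribosomal gene RSM19, had 795 and 420, at −1.10 (−1.28 to −0.93). YDR524W-C had 1032 and 565, at −1.05 (−1.20 to −0.90), and only 2 counts after ribosomal RNA depletion. YGR035W-A had 909 and 505, at −1.03 (−1.19 to −0.87). The next ratios, of PIN4 (−0.91), VPS17 (−0.90) and PTH2 (−0.88), were within 2-fold.

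At 200 counts or more, 908 identifiers were measured, and 49 were at least 2-fold lower (5.40%). Besides YER137C, TGL2 and COQ6, the 15 lowest ratios were those of identifiers whose upstream neighbour is a protein-coding gene. VTC1 (chromosome V, 302806 to 303195), a gene for a subunit of the vacuolar polyphosphate polymerase, had 201 counts in TAP, 16 in CIP/TAP and 0 after ribosomal RNA depletion, at −3.79 (−4.67 to −3.10). TMN2 had 234 and 36, at −2.87 (−3.43 to −2.37). TRM1, the gene for a tRNA methyltransferase, had 253 and 43, at −2.73 (−3.24 to −2.27). These 3 had ratios as low as some identifiers beside tRNA genes.

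KAP114, a nuclear import receptor gene, had 256 and 67 counts, at −2.11, and KEL1 had 175 and 48, at −2.04. FSH2 (−1.86), MND2 (−1.86), MRPL28 (−1.85), SRN2 (−1.73), TYS1 (−1.71) and FOL3 (−1.66) completed the 15 lowest. They include a subunit gene of the anaphase-promoting complex (MND2), a mitochondrial ribosomal gene (MRPL28), an ESCRT-I gene (SRN2) and the tyrosyl-tRNA synthetase gene (TYS1). All of the 15 lowest had under 200 counts in CIP/TAP and passed that line only with their TAP counts. TAP is the library in which they were higher, which limits these calls. The divergent partner of TYS1 is TFG1, a gene of the initiation factor TFIIF, and under the identifier TFG1 the counts were 701 and 540, at −0.56 (−0.72 to −0.40).

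Identifiers with more counts after CIP were more numerous at these depths, with 123 of 908 at least 2-fold higher (13.5%). FIP1, the gene for a subunit of the polyadenylation factor, had 1 count in TAP and 237 in CIP/TAP, a ratio of 7.12 (5.21 to 13.01). YAP1802, a clathrin adaptor gene, had 18 and 216, at 3.37 (2.71 to 4.18), and 0 after ribosomal RNA depletion. YTA7, a gene for a chromatin-bound ATPase, had 16 and 190, at 3.35 (2.65 to 4.22). In all 3 the TAP count was under 20, so they passed 200 counts only with their CIP/TAP counts. That library is the one in which they were higher, which limits these calls. The line was set on raw sums, and CIP/TAP was the larger library.

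TAF7, a TFIID gene, had 16 and 189 counts, at 3.34 (2.64 to 4.21), while its divergent partner MTF1 had 329 and 673, at 0.85 (0.66 to 1.04). ESC1, a gene of silencing at the nuclear edge, had 23 and 267, at 3.33 (2.74 to 4.04). DUG3, STB2, TRM82, ARC40, MUD2, DIA2, DPB2, MTR2 and KTR6 followed, from 3.16 to 2.41. DPB2, the gene for a subunit of DNA polymerase epsilon, had the most counts among these 9, 83 and 548, at 2.53 (2.20 to 2.89). TAF7, ESC1 and these 9 also passed 200 counts only with their CIP/TAP counts.

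With at least 1000 counts the highest ratio was that of MHR1 (chromosome IV, 1055212 to 1055892), a gene of mitochondrial DNA recombination that starts 564 bp from HDA2. It had 219 counts in TAP and 1326 in CIP/TAP, at 2.41 (2.21 to 2.63). The other 9 of the 10 highest were at 1.50 or less. SEC66, a gene of protein translocation, had 545 and 1751, at 1.50 (1.36 to 1.64). OM14, a mitochondrial outer membrane gene, had 951 and 2966, at 1.46 (1.35 to 1.56). NPP2, whose divergent partner EDC3 is a gene of decapping, had 500 and 1548, at 1.45 (1.30 to 1.60).

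SSL2, the gene for a helicase of the initiation factor TFIIH, had 458 and 1409 counts, at 1.44 (1.28 to 1.59). ADF1, divergent to the ribosome assembly gene KRR1, had 1507 and 4234, at 1.31 (1.22 to 1.39). CCT4, a chaperonin gene, had 342 and 872, at 1.17 (0.98 to 1.35). MLC2 (1.15), UBS1 (1.12) and SIR3, a silencing gene (1.12), completed the 10 highest. All 10 had a divergent upstream gene, as did 286 of the 301 identifiers at this depth.

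Identifiers at 0 in 1 of the libraries were all of low count. At 0 in TAP were 47, with 50 to 151 counts in CIP/TAP, so that they were at least 14.7-fold to at least 44.3-fold higher there. MYG1 had 151, BUD13, a splicing gene, 125, and RCN2 107. KAP123, an import receptor gene, PBN1 and APC2, a gene of the anaphase-promoting complex, had 105 each. Of the 47, 26 were also at 0 after ribosomal RNA depletion, and 20 had a tandem upstream neighbour, one on the same strand, at any distance (13 within 500 bp and 7 farther). Of all measured identifiers, 194 (11.6%) were at 0 after ribosomal RNA depletion and 352 (21.0%) had a tandem upstream neighbour. The 47 had a median of 65 counts. Among the 439 identifiers with 50 to 99 counts, 112 had a tandem neighbour within 500 bp and 76 had one farther away. The part of low counts in these shares was not tested.

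At 0 in CIP/TAP were 16 identifiers, with 50 to 77 counts in TAP and bounds of 18.9-fold to 29.1-fold lower. AIM18 had 77, and YDR514C, CSS2 and INA17 had 75 each. CSS2 lies 1123 bp from a divergent tRNA gene, and YJL028W was the only one of the 16 with a polymerase III gene within 500 bp. RPN13, the gene for a ubiquitin receptor of the proteasome, had 53 and 0. CDC9, the DNA ligase gene, had 67 and 0. These 47 and 16 had at least 50 counts only through the library in which they were counted. Over all 5797 identifiers, 3054 were at 0 in TAP and 3221 in CIP/TAP.

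Outside the small RNA classes, the medians of the main classes of upstream neighbour ran from 0.06 to 0.49. Over all measured identifiers the median was 0.16, with 22.2% higher and 15.6% lower. The 1052 measured identifiers with a divergent protein-coding gene within 500 bp had a median of 0.15 (0.09 to 0.21), 184 higher (17.5%) and 138 lower (13.1%). The 255 whose divergent neighbour was farther away had 0.06 (−0.11 to 0.28), 67 higher (26.3%) and 41 lower (16.1%). The 213 with a tandem neighbour within 500 bp had 0.20 (−0.05 to 0.37), 66 higher (31.0%) and 46 lower (21.6%). With a minimum of 10 counts, however, the median of 569 such identifiers was −0.52. The 139 with a tandem neighbour farther away had 0.49 (0.19 to 0.89), an interval above the 0.16 of all, with 53 higher (38.1%) and 27 lower (19.4%). Their median count was 89, against 395 for identifiers with a divergent protein-coding gene. The part of these lower counts in the shares past 2-fold was not tested. At 500 counts or more, 18 identifiers with a tandem neighbour within 500 bp had a median of 0.03 (−0.18 to 0.36), and 11 with one farther away had 0.40 (−0.14 to 0.96).

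Among divergent protein-coding neighbours, the shortest gaps had the lowest medians. With at most 100 bp between the genes, 22 identifiers had a median of −0.34 (−0.72 to 0.21), 0 of them higher and 3 lower. With 101 to 150 bp, 15 identifiers had −0.36 (−0.82 to 0.35). Between 151 and 500 bp the medians of 6 ranges lay between 0.08 and 0.24. The intervals of the short gaps include the median of all identifiers, so that a difference was not shown at this number of identifiers. At 401 to 500 bp, 29 of 109 were higher and 24 lower, the largest joint share of calls within 500 bp, and their median count of 238 was the lowest there.

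Several of the identifiers with the highest counts differed little between the libraries. UTR5, divergent to HYP2, the gene for the translation factor eIF5A, had 121682 counts in TAP and 133472 in CIP/TAP, at −0.05 (−0.06 to −0.04). YHR173C, divergent to the enolase gene ENO2, had 30242 and 31969, at −0.10. ASA1, divergent to SUA7, the gene for TFIIB, had 18284 and 24133, at 0.22 (0.19 to 0.24). RSE1, a splicing gene, had 15769 and 14390, at −0.32 (−0.35 to −0.28). These 4 lay within 0.5 log2 units of the median of all identifiers.

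Somewhat higher ratios were found for others of the same rank. GFD2, divergent to SRO9, had 16355 and 31922 counts, at 0.78 (0.75 to 0.81). CWC2, divergent to the snoRNA protein gene NHP2, had 15722 and 27104, at 0.60 (0.57 to 0.63). CDC36, a gene of the Ccr4-Not deadenylase complex, had 13524 and 23009, at 0.58 (0.55 to 0.61). MTR10, a nuclear import gene, had 7600 and 13133, at 0.61 (0.56 to 0.65). SCC4, the cohesin loader gene that is divergent to SPT15, the gene for the TATA-binding protein, had 6885 and 13877, at 0.83 (0.79 to 0.87). With such counts the intervals are narrow, but the spread between repeat libraries is not known.

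Groups of genes were read through the divergent neighbour, because the counts sit mostly beside such genes, and then through the identifier itself. None of the groups with at least 5 measured identifiers by divergent neighbour had a median as far from 0 as the polymerase III genes. The medians ran from −0.10 to 0.50, and with total-count scaling they lay about 0.16 lower.

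**Figure D5:**
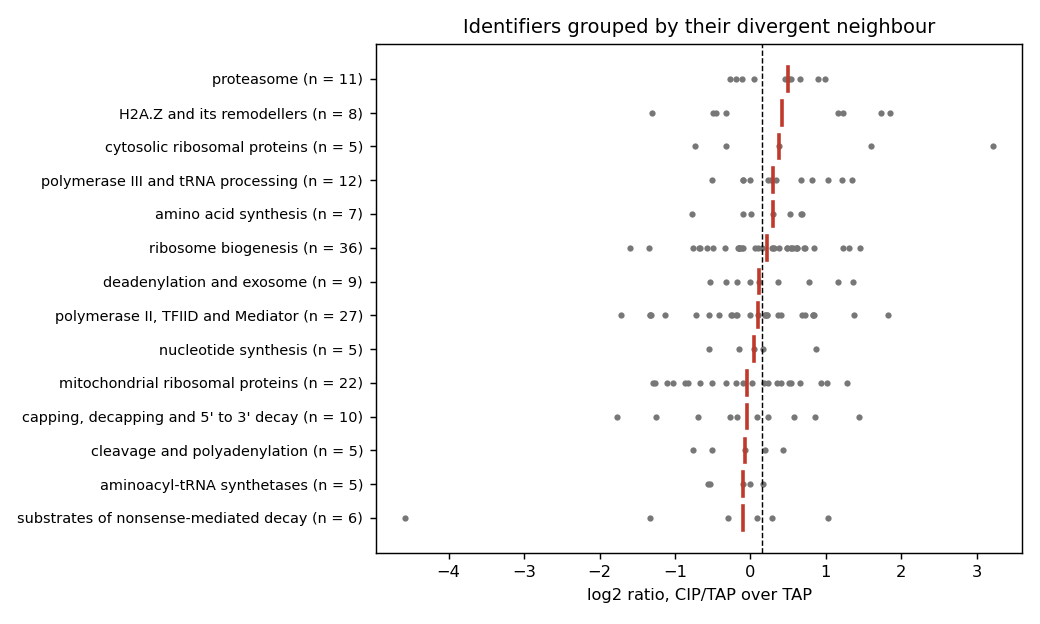
Log2 ratio of CIP/TAP over TAP of measured identifiers grouped by the function of the gene divergent to them within 500 bp; grey points are identifiers, red bars the group medians and the dashed line the median of all 1679 (0.16). Medians run from −0.10 to 0.50, and the points of each group spread across the line.

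The machinery that makes and removes the cap was read first. Of 10 measured identifiers divergent to genes of capping, decapping and 5′ to 3′ decay, 1 was higher and 2 were lower. Over all measured identifiers these shares were 22.2% and 15.6%. The group median was −0.05 (−1.25 to 0.85), which was above 0 at 200 counts or more. NPP2 beside EDC3 was the higher one. CTS2, beside DXO1, the gene for an enzyme that removes faulty caps, had 46 and 15 counts, at −1.77 (−2.75 to −0.93). YDL159W-A, beside the decapping helicase gene DHH1, had 137 and 65, at −1.25 (−1.71 to −0.82). Under their own identifiers, 4 of 10 genes of this group were higher and 2 lower, with a median of 0.22 (−1.26 to 2.22). ABD1, the cap methyltransferase gene, had 8 and 78 counts, at 3.02 (2.05 to 4.36), and XRN1, the gene for the main 5′ to 3′ exonuclease, had 122 and 56, at −1.30 (−1.79 to −0.84).

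Of 13 measured identifiers of cleavage and polyadenylation genes, 4 were at least 2-fold higher and 2 lower, shares near the 22.2% and 15.6% of all identifiers. Their median was 0.89, and its interval (−0.25 to 2.58) includes the 0.16 of all. Besides FIP1, the higher ones were PAB1, the poly(A)-binding protein gene, with 5 and 122 counts at 4.29 (3.16 to 6.07), NAB2, with 18 and 125 at 2.58 (1.89 to 3.41), and RNA14, with 167 and 475 at 1.32 (1.07 to 1.59). FIP1, PAB1 and NAB2 were measured only through their CIP/TAP counts, which limits these calls and the median. PAP1, the poly(A) polymerase gene, had 2504 and 5531, at 0.96 (0.89 to 1.03). RNA15 had 260 and 141, at −1.06 (−1.37 to −0.77), and GLC7 had 54 and 30, at −1.02 (−1.73 to −0.36). By divergent neighbour, 5 identifiers were measured and 0 were past 2-fold.

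Of 9 identifiers divergent to deadenylation and exosome genes, 2 were higher and 0 lower, where 22.2% and 15.6% of all identifiers were. MLC2, beside SKI3, and VAM7, beside SKI8, with 58 and 170 counts at 1.36 (0.93 to 1.82), both lie next to genes of the Ski complex, which feeds RNA to the exosome. The median of 0.11 (−0.33 to 1.15) was below 0 with total-count scaling. By their own identifiers 8 were measured, 1 higher and 1 lower, with a median of 0.39. PAN2 was at 1.04 (0.59 to 1.52) with 57 and 134 counts, and RRP43, with 48 and 27, was just past 2-fold lower (−1.75 to −0.30).

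Of 6 identifiers divergent to substrates of nonsense-mediated decay, 1 was higher and 2 lower, where 22.2% and 15.6% of all identifiers were. The median was −0.10 (−4.58 to 1.03), which was above 0 at 200 counts or more. BRE2, beside PPR1, had 73 and 3 counts, at −4.58 (−7.10 to −3.18), and TAD3, beside the telomerase gene EST2, had 116 and 52, at −1.33 (−1.84 to −0.86). PPR1 under its own identifier had 109 and 247, at 0.99 (0.67 to 1.34). Of the listed genes themselves 6 were measured, 1 higher and 0 lower, with a median of 0.58 (−0.22 to 2.23).

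Genes for RNA polymerase III and tRNA processing are themselves transcribed by polymerase II. Of 12 identifiers divergent to them, 3 were higher and 0 lower, where 22.2% and 15.6% of all identifiers were. The median was 0.30 (−0.09 to 1.02). QCR2, beside RPC82, had 270 and 624 counts, at 1.02 (0.82 to 1.24), RFA1, beside the splicing endonuclease gene SEN34, had 54 and 143, at 1.21 (0.76 to 1.70), and EXO70, beside the tRNA ligase gene TRL1, had 28 and 82, at 1.35 (0.73 to 2.04). Under their own identifiers 14 were measured, 2 higher and 3 lower, with a median of −0.15 (−1.24 to 0.52). RPC53 had 2707 and 6576 counts, at 1.10 (1.03 to 1.16), and POP6, an RNase P gene, had 109 and 38, at −1.69 (−2.28 to −1.16).

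Of 27 identifiers divergent to genes of polymerase II, TFIID and Mediator, 2 were higher and 5 lower, with a median of 0.10 (−0.42 to 0.41) that was below 0 with total-count scaling. The lower ones were TYS1 beside TFG1, YDL109C beside KIN28 (−1.33), ARG81 beside TAF13 (−1.33), VPS41 beside TFB5 (−1.31) and HRT1 beside MED7 (−1.13). ARG81 had 264 and 119 counts, and the others except TYS1 had under 150 in TAP. RTT102 beside TAF1 had 60 and 177, at 1.37 (0.95 to 1.82), and DAT1 beside TAF8 had 15 and 62, at 1.83 (1.03 to 2.78). Under its own identifier TAF8 had 93 and 5, at −4.27 (−6.06 to −3.13), and TAF4 had 107 and 6, at −4.23 (−5.82 to −3.17). In all, 35 such identifiers were measured, 7 higher and 6 lower, with a median of 0.21 (−0.27 to 0.36). The shares higher and lower were 7.41% and 18.5% by neighbour and 20% and 17.1% by identifier. Over all measured identifiers they were 22.2% and 15.6%.

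Of 36 identifiers divergent to ribosome biogenesis genes, 3 were higher and 2 lower, with a median of 0.22 (−0.15 to 0.54). MTC2 beside UTP11 had 242 and 752 counts, at 1.45 (1.24 to 1.67), and LCP5 beside NSA2 had 244 and 647, at 1.22 (1.01 to 1.44). HIS6 beside FAF1 had 249 and 93, at −1.60 (−1.96 to −1.26), and MDM20 beside BRX1 had 216 and 96, at −1.35. Ribosome biogenesis identifiers themselves numbered 44, 8 higher and 5 lower, with a median of 0.01 (−0.37 to 0.37) that was below 0 with total-count scaling. By neighbour the shares past 2-fold, 8.33% and 5.56%, were below the 22.2% and 15.6% over all identifiers. The median count of that group, 928.5, was above the 234 of all.

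Of 11 identifiers divergent to proteasome genes, 0 were past 2-fold in either direction, and the median was 0.50 (−0.19 to 0.89). Their median count was 2531, and of all identifiers with 1000 to 4999 counts 6.36% were higher and 2.54% lower. YPI1 beside RPN11, the deubiquitinase gene of the lid, was the highest at 0.99 (0.96 to 1.03), and YTH1 beside RPN7 followed at 0.89 (0.78 to 1.00). PMT1 beside RPN6, with 256 and 241 counts, was the lowest at −0.27 (−0.53 to −0.01). Under their own identifiers 12 were measured, 2 higher and 3 lower, with a median of 0.04 that was below 0 with total-count scaling. Over all measured identifiers 22.2% were higher and 15.6% lower. PRE6 had 30 and 149 counts, at 2.11 (1.56 to 2.75), and RPT6 had 84 and 13, at −2.83 (−3.84 to −2.02), while their divergent partners were within 2-fold.

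Of 22 identifiers divergent to mitochondrial ribosomal genes, 2 were higher (9.09%) and 4 lower (18.2%), where 22.2% and 15.6% of all identifiers were. The median was −0.04 (−0.83 to 0.51), which was above 0 at 200 counts or more. Besides AIM36 and DBP6, LSM3 beside MRPL4 had 180 and 85 counts, at −1.26 (−1.66 to −0.89), and EAF7 beside NAM9 had 156 and 87, at −1.02 (−1.42 to −0.64). DBP1 beside MRP51 had 159 and 438, at 1.28 (1.01 to 1.55). Of 33 mitochondrial ribosomal identifiers, 8 were higher and 6 lower, with a median of 0.23 (−0.32 to 0.58).

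The series concerns the histone variant H2A.Z and the complexes that place and remove it. Of 8 identifiers divergent to such genes, 4 were higher and 1 lower (22.2% and 15.6% of all identifiers), with a median of 0.42 (−1.31 to 1.86) that was below 0 at 200 counts or more. RMD1 beside NHP10 had 31 and 129 counts, at 1.86 (1.30 to 2.49), and SMC4 beside ARP6 had 76 and 203, at 1.23 (0.85 to 1.63). Of the higher ones, RMD1, YNL108C and CUL3 had under 50 counts in TAP. They were measured only with their CIP/TAP counts, which limits these calls and the median. Of the listed genes themselves 13 were measured, 1 higher and 2 lower, with a median of 0.25 (−0.73 to 0.43). ARP6 had 168 and 2, at −6.26 (−9.63 to −4.70), the opposite direction to its partner, and was measured only through its TAP count. SWR1, the ATPase gene of the complex that deposits H2A.Z, had 118 and 160, at 0.25 (−0.10 to 0.61).

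Cytosolic ribosomal protein genes had few counts under their own identifiers, and 8 of 137 were measured. RPL40B had 451 and 735 counts, at 0.52 (0.35 to 0.69), RPS28A had 271 and 345, at 0.16 (−0.07 to 0.40), and RPS9A had 127 and 82, at −0.81 (−1.23 to −0.40). RPL39, RPL17B and RPL30 were at 0 in TAP and had 61, 52 and 50 counts in CIP/TAP, and RPS4A had 1 and 91. These 4 were measured only through their CIP/TAP counts, so no median is given. Just under 50 counts the libraries differed in both directions, with 40 and 0 counts for RPL18B, 37 and 0 for RPS6B, 39 and 2 for RPL12A, 0 and 41 for RPS27B and 1 and 39 for RPL41A.

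By divergent neighbour, 0 of 7 identifiers beside amino acid synthesis genes, 0 of 5 beside nucleotide synthesis genes and 0 of 5 beside aminoacyl-tRNA synthetase genes were past 2-fold, with medians of 0.29, 0.05 (below 0 with total-count scaling) and −0.09. Under their own identifiers, amino acid synthesis genes had 2 higher and 2 lower of 11, nucleotide synthesis genes 3 and 3 of 11, and genes of the TCA cycle and respiratory chain 3 and 1 of 6. Of all measured identifiers 22.2% were higher and 15.6% lower. Translation factor genes had 5 identifiers measured, with 1 higher and 0 lower. Glycolysis and fermentation genes had 4, with 1 higher and 0 lower. Of the core histone genes, HHT1 alone was measured, with 24 and 36 counts.

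The table depleted of ribosomal RNA gave a readout of the same identifiers that the ratio did not use. Identifiers at least 2-fold lower after CIP had a median of 34.5 counts in that table, those at least 2-fold higher 24, and those within 2-fold 277.5. The shares at 0 in it were 16.0%, 24.4% and 5.84%. Among the 194 measured identifiers that were at 0 there, 46.9% were higher and 21.6% lower, with a median ratio of 0.82 (0.24 to 1.19). With 1000 to 9999 counts there, 10.4% of 268 were higher and 3.73% lower, with a median of 0.17 (0.07 to 0.26). The summed poly(A) counts differ between these ranges as well, with medians of 74 and 1306, and their part in the shares was not tested. At 200 summed counts or more, 17 identifiers were at 0 in the depleted table, and their median was 0.73 (0.02 to 1.01).

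The ratios of the members of a divergent pair were nearly unrelated across pairs. In 455 pairs with both identifiers measured, Spearman's rho between the ratios was 0.02 and Pearson's r −0.05, as a description across pairs that share both libraries. Both members were at least 2-fold higher in 13 pairs, both lower in 5, and in opposite directions in 22. Singly, 17.5% of measured identifiers beside a divergent protein-coding gene within 500 bp were higher and 13.1% lower. Whether the pair counts differ from those of unrelated identifiers with such shares was not tested. In 229 pairs with at least 200 counts for each member, rho was 0.05, and the median absolute difference of the ratios was 0.63, against 0.90 in all 455. Among 127 convergent pairs rho was 0.03.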

How the data were processed

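RNA 5′ ends were counted by SMORE-seq in 1 poly(A)-selected TAP library, 1 CIP/TAP library and a table of 3 ribo depletion samples, and the 12 other samples of the series were not analysed here. Per the file headers, the authors deposited raw counts for each gene identifier, which were whole numbers with no normalization. Named in the submitters' processing notes, without their roles, are bcl2fastq, BWA 0.6.2, bedtools, featureCounts and the build sacCer3. Which feature and strand were counted, and how the 3 ribo depletion samples were joined into 1 table, were points not given in the sources used here. Neighbours and positions came from the R64 gene table, which matched 5794 of 5797 identifiers, and a gap is the number of bases between 2 genes.

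Counts were scaled with TMM factors (edgeR 4.0.16, R 4.3.3), which were 1.06 for TAP and 0.946 for CIP/TAP. The ratio was log2 of (count + 0.5) over scaled library size. With 1 library a group, differences were not tested and have no p-value. Ratios carry an exact Clopper-Pearson 95% interval conditional on the summed count (scipy 1.17.1, Python 3.11.15), and medians an order-statistic 95% interval from 6 measured identifiers on. Without molecular identifiers, reads need not be independent molecules, and intervals and floors reflect counting error alone. Folds against a count of 0 are bounds from a floor of 3 counts per library that take the other count as exact. The intervals of these ratios therefore reach smaller differences. The calculation was tested on simulated counts that held counting error only, so that test does not cover the spread between libraries. Alternatives were scaling by total counts, upper-quartile factors or DESeq2 1.42.0 size factors, 10 or 200 counts as the minimum, 5 added to each count, gaps of 300 or 1000 bp, and the whole interval beyond 2-fold.

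The comparison, the 23 gene lists and the naming rule were chosen with earlier results of these data known. The text names members of the sets that rule defines, though not every one of each: the 15 highest and 15 lowest ratios at 200 counts or more, the 10 of each at 1000 counts or more, the 10 highest counts of each library, identifiers at 0 in 1 library, those beside polymerase III, snoRNA or snRNA genes, the extremes of each list and the identifiers nearest to each threshold. Other list members, and neighbours of small RNA genes at other positions, were named after their values had been seen.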

Additional observations from a re-analysis of the deposited data

How the results depend on the processing

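No paired analysis was possible because each group had 1 library and the groups share no replicate numbers that pair samples. The median of all identifiers shifted by −0.16 with total counts, by −0.20 with upper-quartile factors and by 0.03 with DESeq2 size factors, relative to TMM. The 373 higher and 262 lower calls became 315 and 292, 304 and 311, and 384 and 253 in the same order, so that the higher share of the calls went from 58.7% to 51.9%, 49.4% and 60.3%. A minimum of 10 counts gave 622 higher and 783 lower (44.3% higher), and one of 200 counts gave 123 and 49 (71.5%). With the whole interval beyond 2-fold, 239 were higher and 182 lower.

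The median beside divergent polymerase III genes stayed between −4.92 and −3.54 under the scaling, count, 5-added and 300 bp alternatives, and was −3.83 without YER137C, a setting chosen after seeing the data. With neighbours up to 1000 bp away it was −1.37 over 17 identifiers, since 8 more distant ones entered. The median beside protein-coding genes was 0.15, but −0.0058 for total counts and −0.049 for upper-quartile factors, and that of tandem identifiers was −0.52 with a minimum of 10 counts, against 0.20 (the cause was not tested). Of 34 list medians, 7 changed sign with total counts, 8 with upper-quartile factors, 7 with a minimum of 10 counts and 0 with DESeq2 size factors or 5 added to each count, and of 30 that could be had at 200 counts, 6 did. Of the 1679 identifiers, 908 had at least 200 counts over both libraries, and ratios of the others rest on few counts.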
